A study of Mus musculus with 12 samples.

Results

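Livers of 12 mice were examined for 10 genes, namely Fkbp5, Tsc22d3, Ddit4, Sgk1, Zbtb16, Klf9, Dusp1, Tat, Mt1 and Mt2, which were chosen by name as genes known to respond to glucocorticoids, together with the metallothioneins. They were chosen with earlier results of these data known. All 10 had a row under that name among the 57180 genes of the deposited count table, and all 10 were among the 19350 genes with enough reads to be tested. Total RNA depleted of ribosomal RNA had been sequenced from 3 mice in each of 4 groups, defined by sex (F, M) and by genotype (Het, KO). Mice carry the names of the labels, and values by liver are given in the order Het_F_111, Het_F_115 and Het_F_126, then Het_M_119, Het_M_125 and Het_M_137, then KO_F_108, KO_F_112 and KO_F_123, then KO_M_118, KO_M_122 and KO_M_136. All of these mice lack Csa (listed as Ercc8), a protein of transcription-coupled DNA repair, and all had received AAV9-CSA, a viral vector with a human CSA cDNA under a ubiquitous promoter, injected into the cerebral ventricles of the newborn. The KO mice were collected at the humane endpoint of severe hunched posture and body tremors, and the Het mice (Csa-/-;Xpa+/-) are littermates of matched age without signs of disease. In the labels KO stands for Csa-/-;Xpa+/+, although the study writes of mice without Xpa as well, and KO and Het here mean the livers labelled so. Since every KO mouse was at the endpoint and no Het mouse was, that state and the genotype cannot be told apart, and time of day and feeding at collection are not given. There was no wild-type group and no untreated group among these 12 livers.

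Glucocorticoids enter hepatocytes and bind the glucocorticoid receptor (Nr3c1), which is held ready by Hsp90 and its co-chaperones, moves to the nucleus and binds DNA at pairs of short inverted half-sites. Genes it raises in many tissues include a feedback co-chaperone of the receptor itself (Fkbp5), brakes on growth and kinase signaling (Ddit4, Dusp1), transcription regulators (Tsc22d3, Zbtb16, Klf9), a kinase (Sgk1) and, in liver, the first enzyme of tyrosine breakdown (Tat). Metallothioneins are small cysteine-rich proteins that bind zinc, and their genes are switched on in liver by zinc through the factor Mtf1, by glucocorticoids and by inflammatory cytokines. Several of these genes also respond to other signals, among them fasting, hypoxia, amino acid shortage and the daily clock.

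Sequences of the mouse genome (GRCm39) are shown for members in which a receptor motif was found, with binding motifs in capitals. Of these members only Fkbp5 passed a test of KO against Het given below. Ddit4, the other member that passed, held no receptor motif in the windows searched. The full palindrome of the receptor, which is the half-site AGAACA, 3 bases of any kind and its reverse complement TGTTCT, was searched on both strands in each gene and 10000 bases to either side of it. It was present in 2 of the 10 genes, Fkbp5 and Sgk1, against 1.68% (366) of 21770 protein-coding genes, which differ in length, and only 0.0505% (11) of those genes held more than 1 match, as Fkbp5 did. Both Fkbp5 matches lie in introns of the canonical transcript (introns 5 and 1 of 10), at chr17:28639265-28639339 and chr17:28661363-28661437 on the minus strand. The Sgk1 match, at chr10:21869570-21869644 on the plus strand, lies 958 bases before the start of the canonical transcript and inside the annotated span of the gene. These 3 windows show the capitals with 30 bases on each side, on the strand of the gene.
Fkbp5 intron 5: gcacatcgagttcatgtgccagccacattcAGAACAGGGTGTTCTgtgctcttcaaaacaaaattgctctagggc
Fkbp5 intron 1: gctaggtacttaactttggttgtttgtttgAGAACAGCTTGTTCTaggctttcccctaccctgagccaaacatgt
Sgk1 upstream: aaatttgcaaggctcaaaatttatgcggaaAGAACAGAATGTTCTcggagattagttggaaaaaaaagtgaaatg

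The promoter shown is that of Mt1, the only one of the 10 genes with a relaxed receptor motif in the 250 bases before its canonical start. Mt2 (chr8:94898819-94900207) and Mt1 (chr8:94905710-94906955) lie on the plus strand of chromosome 8 with 5502 bases between them. In the 250 bases before the canonical start of Mt1, chr8:94905460-94905709, the capitals mark a relaxed receptor motif (GNACA, 3 bases of any kind and TGTNC, which every full palindrome also matches), and a core of the Mtf1 site, TGCACNC. The relaxed motif was present in 0.299% (65) and either core of the Mtf1 site, TGCACNC or TGCGCNC, in 21.9% (4764) of 21770 promoters of this length, searched on both strands. In the same window Mt2 held 0 relaxed motifs and 2 cores. Tsc22d3, Ddit4 and Zbtb16 held 1 core each there, and the remaining members held none.
Mt1 promoter: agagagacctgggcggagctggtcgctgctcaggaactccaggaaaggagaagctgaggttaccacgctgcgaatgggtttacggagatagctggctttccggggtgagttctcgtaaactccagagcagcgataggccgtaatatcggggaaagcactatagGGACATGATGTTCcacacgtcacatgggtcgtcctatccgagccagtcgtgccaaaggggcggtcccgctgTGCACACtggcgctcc

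Mtf1 cores also stand closer to the coding sequence of the metallothioneins, and the Mt1 count below includes the TGCACAC core shown above. In the 250 bases before the start codon, Mt1 held 5 cores and Mt2 held 4, and 12 of 21669 genes (0.0554%) had as many as Mt1 and 68 (0.314%) as many as Mt2. Among the other members Tsc22d3 held 2, Ddit4, Sgk1 and Dusp1 held 1 each, and Fkbp5, Zbtb16, Klf9 and Tat held 0. A match describes the letters in a window and does not show that a factor was bound there. Mt1 and Mt2 transcripts share runs of at most 20 bases over all 14 annotated forms (4 of Mt1 and 10 of Mt2), and they share 0 runs of 31 bases.

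The labels were checked first. Xpa, a DNA repair protein, was at 3.10 to 6.34 CPM in the Het livers and 0.992 to 1.83 CPM in the KO livers, so that the genotypes did not overlap, and fell by 1.83 on the log2 scale (SE 0.163, adjusted p = 4.15e-05, edgeR's quasi-likelihood test). A lower Xpa level in every liver labelled KO goes against the genotype Xpa+/+ that the labels write for KO beside Xpa+/- for Het. CPM is the count per 1e+06 counts of the scaled library, and adjusted p-values are Benjamini-Hochberg values over all 19350 genes, with a call at under 0.05. Mouse Ercc8 was at 5.10 to 8.68 CPM in Het and 14.8 to 33.997 CPM in KO livers, and the sources used here do not say which bases the Csa deletion removes, so it checks no label. The libraries held 30044812 to 43634073 counts, and hepatocyte markers summed to 83784 to 108370 CPM in Het and 103750 to 174380 CPM in KO livers. In all 12 within-group pairs the counts were further apart than counting noise allows. In bulk liver, fewer cells of a type and less RNA per cell cannot be told apart.

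Over both sexes, Ddit4 and Fkbp5 were the 2 of 10 genes called higher in KO than in Het livers, and 0 were called lower. Of all tested genes 12.2% were called higher and 22.4% in either direction in this comparison, so 2 of 10 is not far from that background. The log2 fold change was above 0 for 9 of the 10 genes, Dusp1 being the exception, against 51.8% of all genes, and its median was 0.85 against 0.02 over all genes. It was also above 0 for 9 of 10 genes in females (50.4% of all genes) and for 8 of 10 in males (51.7%). An unadjusted p under 0.05 was found for 4 of the 10 over both sexes, against 36.1% of all genes, for 3 in females, against 29.0%, and for 3 in males, against 24.1%. Because the members were chosen with earlier results of these data known and share the same livers, these values are a description only. The levels in each liver are plotted gene by gene.

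**Figure D1:**
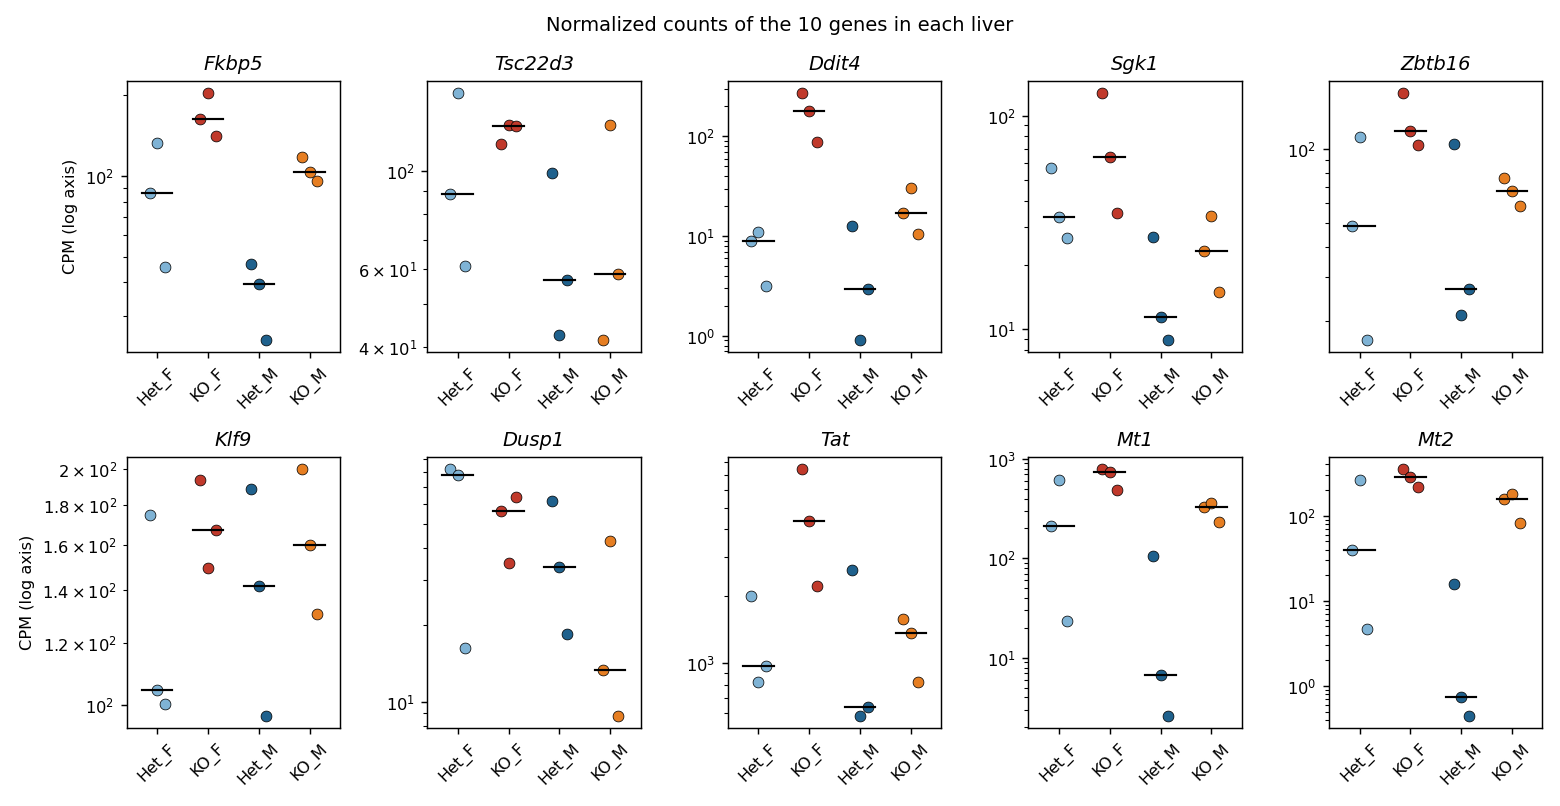
Normalized counts (CPM, log axis, with a scale of its own for each gene) of the 10 genes in the 12 livers. Each point is 1 liver, the columns are Het females, KO females, Het males and KO males with 3 mice each, and the line is the group median; Ddit4 and Fkbp5 lie higher in KO than in Het livers of the same sex except for 1 Het male for Ddit4, and Mt1 and Mt2 are spread widely among the Het livers.

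Fkbp5 encodes the co-chaperone FKBP51, which holds the glucocorticoid receptor in a state of lower affinity and is a common readout of receptor activity. In Het livers Fkbp5 was at 86.2, 133 and 45.8 CPM in the 3 Het females and at 46.8, 39.7 and 24.4 CPM in the 3 Het males. In KO livers it was at 163, 203 and 141 CPM in the 3 KO females and at 117.9, 104 and 95.3 CPM in the 3 KO males. Within each sex every KO liver was above every Het liver, and across the sexes only Het_F_115 was above the lowest KO liver. Fkbp5 was 2.34-fold higher in KO livers over both sexes (log2 fold change 1.22, SE 0.239, adjusted p = 0.00518 by edgeR's quasi-likelihood test). The fold change was 2.85 in males (log2 1.51, SE 0.341, adjusted p = 0.0237), which passed the threshold, and 1.91 in females (log2 0.93, SE 0.336, adjusted p = 0.093), which did not. The difference between the 2 effects did not pass either (log2 0.58, 95% interval -0.46 to 1.61, adjusted p = 0.719). The call over both sexes held when each of the 12 livers was left out, with log2 values from 1.05 to 1.42. In males the call was lost without Het_M_125 (adjusted p = 0.0776), Het_M_137 (0.0788), KO_M_118 (0.0771), KO_M_122 (0.0523) or KO_M_136 (0.0517), with log2 values from 1.27 to 1.58 in those fits. In females Fkbp5 was called without Het_F_115 (log2 1.34, adjusted p = 0.0333).

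Ddit4, also called REDD1, restrains the growth kinase complex mTORC1 and is raised by glucocorticoids, hypoxia and energy shortage. It was scarce in Het livers, at 8.99, 10.9 and 3.13 CPM in the 3 Het females and at 12.5, 0.911 and 2.94 CPM in the 3 Het males. In the 3 KO females it reached 269.9, 180.3 and 88.0 CPM, and in the 3 KO males it was at 16.9, 30.1 and 10.5 CPM. All 3 KO females exceeded every other liver, and of the KO males only KO_M_136 was below any Het liver. The fold change over both sexes was 9.01 (log2 3.17, SE 0.624, adjusted p = 0.00697), and it kept the call when each of the 12 livers was left out (log2 2.91 to 3.90). In females Ddit4 was 23.2-fold higher in KO livers (95% interval 5.47 to 98.8, log2 4.54, adjusted p = 0.0185). In males the value was 3.49-fold (95% interval 0.945 to 12.9, adjusted p = 0.228), which did not pass, and the effects in males and females differed by -2.73 on the log2 scale (SE 1.18, unadjusted p = 0.0435 and adjusted p = 0.527 by edgeR), so a difference between the sexes was not called. The call in females was lost without Het_F_111 (adjusted p = 0.0544), Het_F_126 (0.0541) or KO_F_108 (0.055), with log2 values of 4.65, 4.15 and 4.10 respectively.

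Ddit4 and Fkbp5 were also the only members called within a sex, Ddit4 in females and Fkbp5 in males, against 5.94% of all genes called higher in females and 4.47% in males. In females the KO livers lay above the Het livers without overlap for 3 of 10 genes (Ddit4, Fkbp5 and Tat), which 15.8% of all genes did. In males this held for Fkbp5, Mt1 and Mt2, also 3 of 10, against 16.8% of all genes. With all 12 livers together, 0 of the 10 genes separated the genotypes with KO higher, against 4.72% of all genes.

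**Figure D2:**
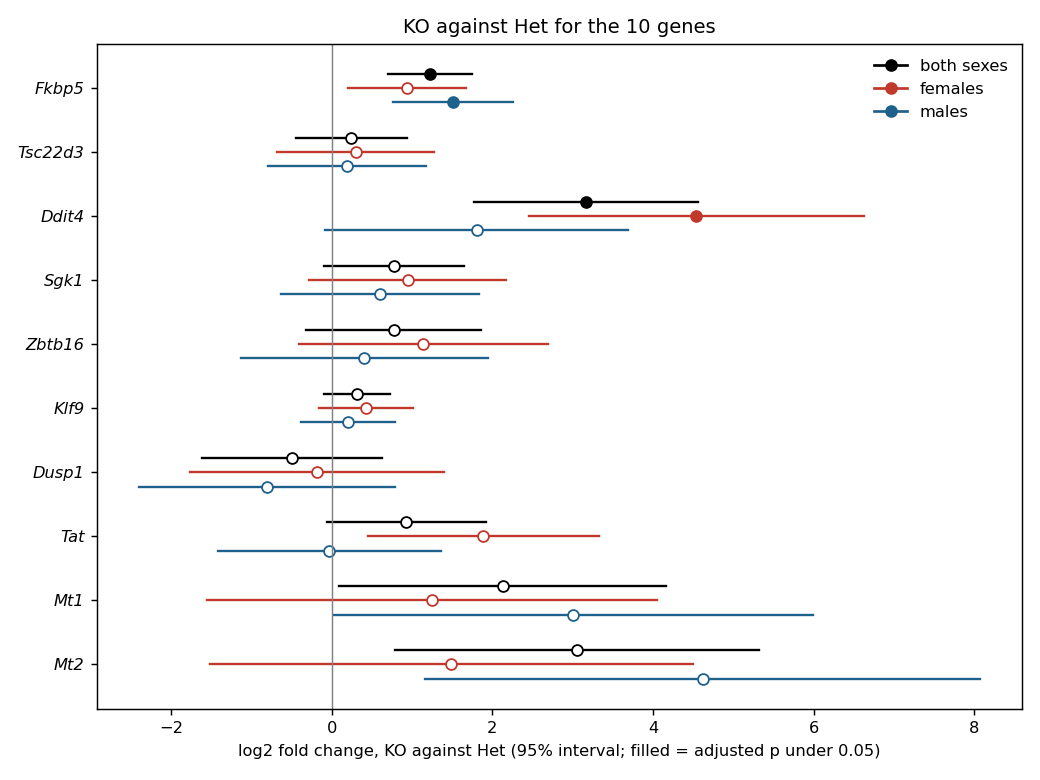
Log2 fold changes of KO against Het livers for the 10 genes over both sexes, in females and in males, with 95% intervals. Filled points passed an adjusted p of 0.05 in edgeR's quasi-likelihood test, which holds for Ddit4 over both sexes and in females and for Fkbp5 over both sexes and in males; the intervals of Mt1 and Mt2 are the widest.

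The metallothioneins Mt1 and Mt2 were abundant in every KO liver and ranged from scarce to abundant in Het livers. Mt1 was at 212, 616 and 23.4 CPM in the 3 Het females and at 105, 6.70 and 2.62 CPM in the 3 Het males. In the KO livers Mt1 was at 791, 739.9 and 489 CPM in the 3 KO females and at 326, 361 and 235 CPM in the 3 KO males. The highest Het liver held 235 times the Mt1 of the lowest, whereas the KO livers differed by 3.37 times. Mt2 was at 40.0, 259 and 4.62 CPM in the 3 Het females and at 15.8, 0.748 and 0.448 CPM in the 3 Het males, in the same order of mice. In the KO females Mt2 was at 352, 285 and 217 CPM and in the KO males at 157, 182 and 83.0 CPM. For Mt2 the highest and lowest Het livers differed by 579 times and the KO livers by 4.25 times. Only Het_F_115 was above the lowest KO liver for either gene.

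Neither metallothionein was called. Over both sexes the fold change of Mt2 was 8.32 (95% interval 1.73 to 40.0, log2 3.06, SE 1.01, adjusted p = 0.0564) and that of Mt1 was 4.37 (95% interval 1.07 to 17.9, log2 2.13, SE 0.910, adjusted p = 0.123), by edgeR's quasi-likelihood test. Within males, where the genotypes did not overlap, the values were 24.6-fold for Mt2 (adjusted p = 0.105) and 8.06-fold for Mt1 (adjusted p = 0.204), and within females 2.81-fold (adjusted p = 0.507) and 2.37-fold (adjusted p = 0.557). These tests turned on single Het livers. Without Het_M_119 both genes were called over both sexes (Mt1 log2 3.62, adjusted p = 0.0129, and Mt2 log2 4.61, adjusted p = 0.0146) and in males (Mt1 log2 6.01, adjusted p = 0.0414, and Mt2 log2 7.74, adjusted p = 0.0479). Without Het_F_115 Mt2 was called over both sexes (log2 4.14, adjusted p = 0.0257) and Mt1 was not (log2 2.75, adjusted p = 0.0842), while in females the log2 values became 3.66 for Mt2 and 2.502 for Mt1, neither called.

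Mt1 and Mt2 had the widest spread within groups of the 10 genes. The standard deviation of log2 CPM within the 4 groups was 1.84 for Mt1 and 2.01 for Mt2, at percentiles 99.4 and 99.6 of all tested genes, whose median was 0.348. It lay in the Het groups, where it was 2.40 and 2.75 for Mt1 and 2.90 and 2.7 for Mt2 in females and males, against 0.376 and 0.325 for Mt1 and 0.351 and 0.601 for Mt2 in the KO groups. Zbtb16 and Fkbp5 also varied more in Het than in KO livers of both sexes, at 1.37 and 1.24 against 0.358 and 0.193 for Zbtb16 and at 0.773 and 0.488 against 0.266 and 0.155 for Fkbp5, and so did Klf9 and Ddit4. Dusp1, Sgk1, Tsc22d3 and Tat did not do so in both sexes, with the highest of the 4 values in Het females for Dusp1 (1.32) and in KO females for Sgk1 (0.926). These spreads are given as a description, over 3 livers in each group.

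Mt1 and Mt2 took the same rank in all 12 livers. Per unit of transcript length, in TPM (the authors' abundance scaled to the same total in every liver), Mt1 exceeded Mt2 everywhere. The ratio of Mt1 to Mt2 in TPM was 1.69 to 2.21 in the 6 KO livers and 2.12 to 7.94 in the 6 Het livers, and the lowest Het ratio was that of Het_F_115, the Het liver with most metallothionein. The number of TPM per CPM depends on the transcript forms to which reads were assigned and on the TPM scale of each liver. It was 1.098 to 1.92 for Mt1 and 1.76 to 2.22 for Mt2. The lowest Mt1 values were in Het_M_119 (1.098) and Het_F_111 (1.40), and the lowest Mt2 value was also in Het_M_119. An annotated antisense RNA, Gm45774, overlaps Mt2, and although the library kit keeps strand, the strand setting of the authors' count is not given in the sources used here.

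**Figure D3:**
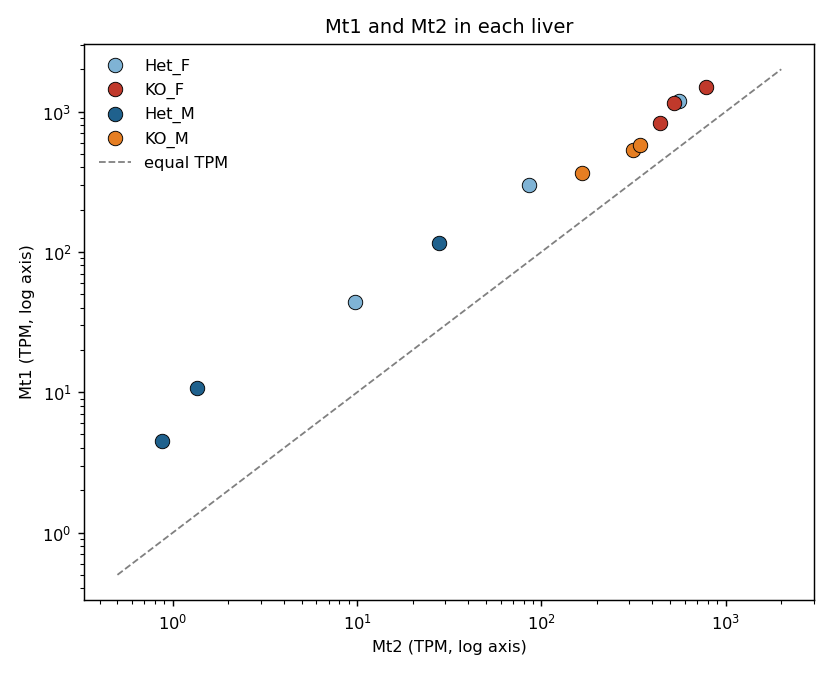
TPM of Mt1 against TPM of Mt2 (both on log axes), 1 point for each of the 12 livers, coloured by group, with a dashed line of equal TPM. Mt1 runs from 4.47 to 1506 TPM and Mt2 from 0.872 to 781 TPM; the KO livers and Het_F_115 form the upper end, closest to the line, and Het_M_125 and Het_M_137 the lower end.

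Tat, tyrosine aminotransferase, is a classical hormone-induced liver enzyme and had the highest median TPM of the 10 genes in Het livers (362 TPM) and in KO livers (718 TPM, next to 706 for Mt1). Tat was at 1998, 825 and 969.5 CPM in the 3 Het females and at 2627, 581 and 636 CPM in the 3 Het males. In the 3 KO females it was at 7456, 4347 and 2228 CPM, and in the 3 KO males at 1586, 1361 and 825 CPM. Each KO female was above each Het female, whereas Het_M_119 was above all KO males. The fold change was 3.70 in females (95% interval 1.36 to 10.04, log2 1.89, SE 0.650, adjusted p = 0.0861) and 0.981 in males (95% interval 0.374 to 2.58, adjusted p = 0.986), and 1.91 over both sexes (adjusted p = 0.163), none of which passed. The effects in the sexes differed by -1.91 on the log2 scale (95% interval -3.90 to 0.07, adjusted p = 0.554). Without Het_M_119 Tat was called over both sexes (log2 1.46, adjusted p = 0.0185) and in females (log2 1.88, adjusted p = 0.0346), and in males its log2 value became 1.04 (adjusted p = 0.296). The male value was near 0 and changed sign with upper quartile scaling and with library size only.

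Sgk1, a kinase that promotes ion transport and cell survival, was at 57.1, 33.7 and 26.7 CPM in the 3 Het females and at 27.2, 11.4 and 8.92 CPM in the 3 Het males. In the 3 KO females it was at 127, 64.2 and 35.2 CPM and in the 3 KO males at 23.3, 33.9 and 14.97 CPM. The genotypes overlapped in each sex, with a fold change of 1.71 over both (95% interval 0.938 to 3.12, adjusted p = 0.182). Dusp1, a phosphatase that switches off p38 and JNK, was the only member with a lower mean log2 level in KO livers. It was at 82.0, 77.6 and 16.3 CPM in Het females, 61.2, 33.7 and 18.4 CPM in Het males, 56.1, 35.1 and 63.5 CPM in KO females and 13.3, 42.8 and 8.82 CPM in KO males, in the same order of mice. The fold change was 0.710 (95% interval 0.326 to 1.55, adjusted p = 0.518), and the genotypes overlapped in both sexes. The annotated span of Dusp1 overlaps other genes on both strands, and so do those of Fkbp5, Klf9 and Zbtb16. That of Tsc22d3 overlaps a pseudogene on its own strand, and those of Sgk1 and Mt2 overlap RNAs on the opposite strand. Some reads of these members may be shared with the overlapping genes.

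Among the transcription regulators, Zbtb16 (PLZF), a zinc finger repressor that is low in many tissues until glucocorticoids are given, was at 48.5, 111.7 and 16.7 CPM in Het females and at 105, 21.2 and 26.9 CPM in Het males. It was at 168, 118.4 and 104 CPM in KO females and at 76.4, 67.5 and 58.5 CPM in KO males, with a fold change of 1.71 over both sexes (95% interval 0.802 to 3.64, adjusted p = 0.286). The highest and lowest livers differed by 2.87 times in KO and by 6.68 times in Het. Tsc22d3 (GILZ), which mediates anti-inflammatory effects of the hormone, was at 42.5 to 149.6 CPM in Het and 41.6 to 127 CPM in KO livers, and each of the 6 Het livers was above the lowest KO liver. The fold change of Tsc22d3 was 1.19 (95% interval 0.733 to 1.92, adjusted p = 0.613), and its log2 value went from 0.25 to -0.05 without KO_M_122. Klf9, a Krüppel-like factor, was at 96.8 to 189 CPM in Het and 131 to 200.1 CPM in KO livers, with a fold change of 1.24 (95% interval 0.933 to 1.66, adjusted p = 0.258). Over both sexes the intervals of Tsc22d3 and Klf9 end below the 2.34-fold estimate of Fkbp5 but overlap its 95% interval (1.62 to 3.36). A difference between these genes was not tested. The intervals do not show that Tsc22d3 and Klf9 were the same in both genotypes.

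In median TPM over the 6 Het livers Tat (362) was followed by Mt1 (79.5), Tsc22d3 (30.2), Dusp1 (21.2), Klf9 (21.01), Mt2 (18.8), Fkbp5 (15.2), Sgk1 (9.12), Zbtb16 (8.95) and Ddit4 (2.91). In the 6 KO livers Tat (718) was followed by Mt1 (706), Mt2 (391), Tsc22d3 (46.7), Fkbp5 (41.1), Klf9 (28.0), Ddit4 (26.7), Zbtb16 (18.6), Dusp1 (16.3) and Sgk1 (14.6). The ranges of neighbours in these orders overlapped between livers, except those of Mt2 and Tsc22d3 in the KO livers. The genes Rn7s1 and Rn7s2 together held 44.5% (KO_F_108) to 55.7% (KO_M_122) of all TPM. Differences in TPM between livers, also in the limma fits, therefore carry this share. Mt1 and Mt2 together held 1.74% to 75.8% of the summed TPM of the 10 genes in Het and 39.3% to 58.4% in KO livers.

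The same livers were often at the ends of the range. KO_M_136 was the lowest KO liver for 9 of the 10 genes, Tsc22d3 excepted, and KO_F_108 was the highest KO liver for 6. Het_F_115 was the highest Het liver for 5 genes, Het_M_119 for 3 and Het_F_111 for 2. The lowest Het liver was Het_M_137 for 5 genes, Het_M_125 for 3 and Het_F_126 for 2. Since each liver is 1 mouse and 1 library, the 10 genes of a liver are not separate observations. The centred levels show Het_M_125 and Het_M_137 at or below the mean for every gene, and the 3 KO females at or above it.

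**Figure D4:**
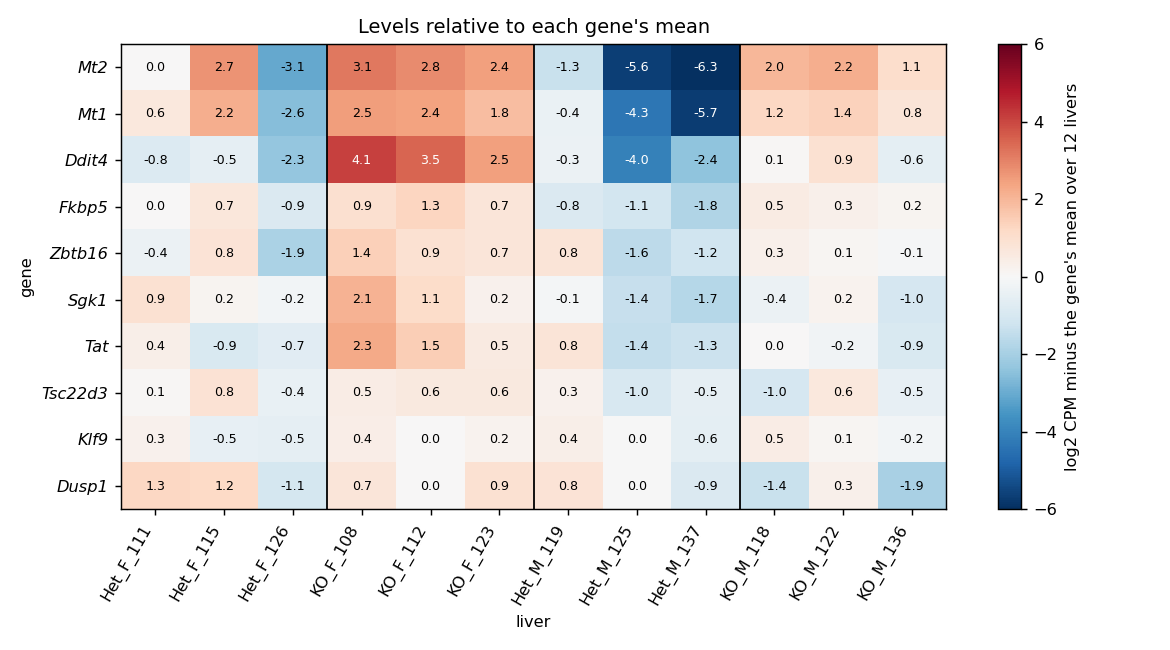
Log2 CPM of the 10 genes (rows) in the 12 livers (columns, by group), minus the mean of the gene over all livers; red is above and blue below that mean. Mt1, Mt2 and Ddit4 span the widest range, from 6.3 below the mean (Mt2 in Het_M_137) to 4.1 above it (Ddit4 in KO_F_108), and Klf9 the narrowest.

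Differences between the sexes pointed the same way for most members but were not called. The log2 difference of males against females, over both genotypes, was below 0 for 9 of the 10 genes, Klf9 being the exception (0.06), with a median of -0.95, while 49.6% of all genes were above 0. None of the 10 was called by edgeR's quasi-likelihood test, against 1.02% of all genes, and 4 had an unadjusted p under 0.05 against 13.8% of all genes. Those 4 were Fkbp5 (log2 -0.97, SE 0.238, adjusted p = 0.0938), Sgk1 (log2 -1.48, SE 0.395, adjusted p = 0.135), Ddit4 (log2 -1.86, SE 0.596, adjusted p = 0.208) and Mt2 (log2 -2.58, SE 0.995, adjusted p = 0.286). DESeq2 called 3 of them, namely Fkbp5, Sgk1 and Ddit4. For the difference of the KO effect between the sexes 0 of 10 were called, against 0.0465% of all genes, and Ddit4 alone had an unadjusted p under 0.05, against 9.28% of all genes. DESeq2 also called 0 of 10 for that difference.

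For each called member, the genes outside the members whose levels followed it most closely over the 12 livers are given beside the closest member. Far more tested genes lie outside the members than among them. A closer gene outside the members therefore says nothing about how the members go together. For Fkbp5 the closest were Spa17, Gstt3 (a glutathione transferase) and Sult1a1 (a sulfotransferase), with root mean square differences of 0.29, 0.34 and 0.36 in centred log2 CPM, and the closest member was Zbtb16 at 0.63. For Ddit4, Gm55330 and 3930402G23Rik were at 0.87 and 0.90, and the closest member was Tat at 1.47. Between Mt1 and Mt2 the difference was 0.71, and between Sgk1 and Tat it was 0.53.

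Other genes that glucocorticoids are known to move in liver were called in both directions. Of 24 such genes, 23 were matched and tested, 4 were called higher (17.4%) and 2 lower (8.70%) in KO livers over both sexes, against 12.2% and 10.2% of all genes, with a median log2 fold change of 0.58. The largest changes were those of Sult1e1, which inactivates estrogen by sulfation (log2 5.001, SE 0.949, adjusted p = 0.00601), and of Lcn2, an iron-binding acute phase protein (log2 4.68, SE 0.478, adjusted p = 0.000277). Lcn2 was at 0.960 to 20.8 CPM in Het and 92.3 to 190.9 CPM in KO livers, and Sult1e1 at 0.0320 to 7.94 CPM and 41.2 to 162 CPM, both without overlap. Hif3a, a hypoxia-inducible factor subunit, was near the limit of detection (0.0640 to 0.500 CPM in Het and 0.634 to 1.64 CPM in KO livers, log2 1.63, adjusted p = 0.00568). Irs2, an insulin receptor substrate, was the other gene called higher (log2 1.59, adjusted p = 0.0405). Called lower were Bcl6, a repressor (log2 -2.08, adjusted p = 0.0148), and Pik3r1, the regulatory subunit of PI3-kinase (log2 -0.77, adjusted p = 0.00906). In females 3 of the 23 were called higher and 0 lower, against 5.94% and 5.10% of all genes, and in males 1 was higher and 2 were lower, against 4.47% and 2.98%. Their summed level was 4239 to 10123 CPM in Het females and 9679 to 20644 CPM in KO females, against 3436 to 9921 CPM in Het males and 6033 to 9041 CPM in KO males.

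Genes of the receptor and its chaperones were called lower more often than higher. Of 19 genes for the receptor, its chaperones and coregulators and the handling of its ligand, 18 were tested, with 1 called higher and 6 lower, against 12.2% and 10.2% of all genes, and a median log2 fold change of -0.24. Nr3c1 itself was at 102 to 142 CPM in Het and 94.9 to 109 CPM in KO livers (log2 -0.24, SE 0.0940, adjusted p = 0.0883) and was not called. Fkbp4, which encodes FKBP52, the counterpart of FKBP51 in receptor complexes, was at 89.3 to 131 CPM in Het and 24.1 to 78.5 CPM in KO livers, without overlap and opposite in direction to Fkbp5 (log2 -0.90, SE 0.208, adjusted p = 0.0111). Also lower were the Hsp90 co-chaperone Stip1 (log2 -0.61, adjusted p = 0.0068), the corepressor Ncor1 (log2 -0.34, adjusted p = 0.0104), the steroid 5-alpha-reductase Srd5a1 (log2 -1.14, adjusted p = 0.0162), the mineralocorticoid receptor Nr3c2 (log2 -0.90, adjusted p = 0.0241) and Hsp90aa1 (log2 -0.53, adjusted p = 0.0477), and Nrip1, a corepressor, was higher (log2 0.47, adjusted p = 0.0288). Irs2, Hsp90aa1, Nrip1 and Nr3c1 were named after their values were seen.

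Genes of zinc handling, mostly zinc transporters, gave 3 called higher (16.7%) and 1 lower (5.56%) of 18 tested, close to the 12.2% and 10.2% of all genes, with a median log2 fold change of -0.04. The higher genes were the zinc importer Slc39a14 (log2 0.80, SE 0.184, adjusted p = 0.0104), Slc39a13 (log2 0.43, adjusted p = 0.0139) and the exporter Slc30a4 (log2 0.33, adjusted p = 0.0204). Mtf1, the zinc-sensing factor that drives Mt1 and Mt2, was lower in KO livers (12.2 to 19.0 against 16.5 to 24.4 CPM, log2 -0.41, SE 0.105, adjusted p = 0.0166). The other metallothionein genes, Mt3 and Mt4, had at most 2 counts in any liver and were not tested. Downstream of Tat, 1 of 5 genes of tyrosine breakdown was called, Hpd, which was lower (log2 -0.51, adjusted p = 0.0154).

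Relatives of the 10 genes were called in both directions, with 3 of 23 tested called higher and 3 lower (13.0% each, near the 12.2% and 10.2% of all genes) and a median log2 fold change of 0.06. Klf6 was higher (log2 1.64, adjusted p = 0.00935), as were Fkbp1a (log2 0.34, adjusted p = 0.0186) and Dusp8 (log2 2.71, adjusted p = 0.027, named after its value was seen), and Zbtb20 (log2 -0.43, adjusted p = 0.0135), Tsc22d1 (log2 -1.06, adjusted p = 0.0264) and Fkbp4 were lower.

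Genes of other programs that also act on these genes were called between the same livers, against 12.2% of all genes called higher and 10.2% lower, and their part in the levels of the 10 genes was not tested. Of 18 acute phase genes 13 were called higher and 0 lower (median log2 0.79), led by Orm2 (log2 3.48, adjusted p = 5.12e-05), Hpx, Stat3, Orm1 and Apcs. Their summed level was 12203 to 16660 CPM in Het and 20168 to 32163 CPM in KO livers, without overlap. Of 15 immediate-early genes, which like Dusp1 respond within minutes to stimulation, 5 were called higher (Ier3, Junb, Fosl2, Fos and Myc) and 0 lower. Within females 4 of the 15 were called higher and within males 0, against 5.94% and 4.47% of all genes. Of 10 genes of the integrated stress response, which also raises Ddit4, 4 were called higher (Asns, at log2 3.08 and adjusted p = 0.00314, Psat1, Trib3 and Atf4) and 2 lower (Fgf21 and, named after its value was seen, Gdf15). Within females 3 of these 10 were called higher and 2 lower, against 5.94% and 5.10% of all genes. Within males 1 was called higher and 0 lower, against 4.47% and 2.98%. Of 15 clock genes 1 was called higher (Cry2, log2 1.27, adjusted p = 0.0107) and 1 lower (Hlf, log2 -0.87, adjusted p = 0.00664), or 6.67% each, which is below the shares of all genes. Their summed level was 384 CPM in the lowest Het female, against a median of 945 CPM in that group. It was 915 to 953 CPM in Het males, 624 to 934 CPM in KO females and 660 to 998 CPM in KO males. The time of day of collection is not given.

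**Figure D5:**
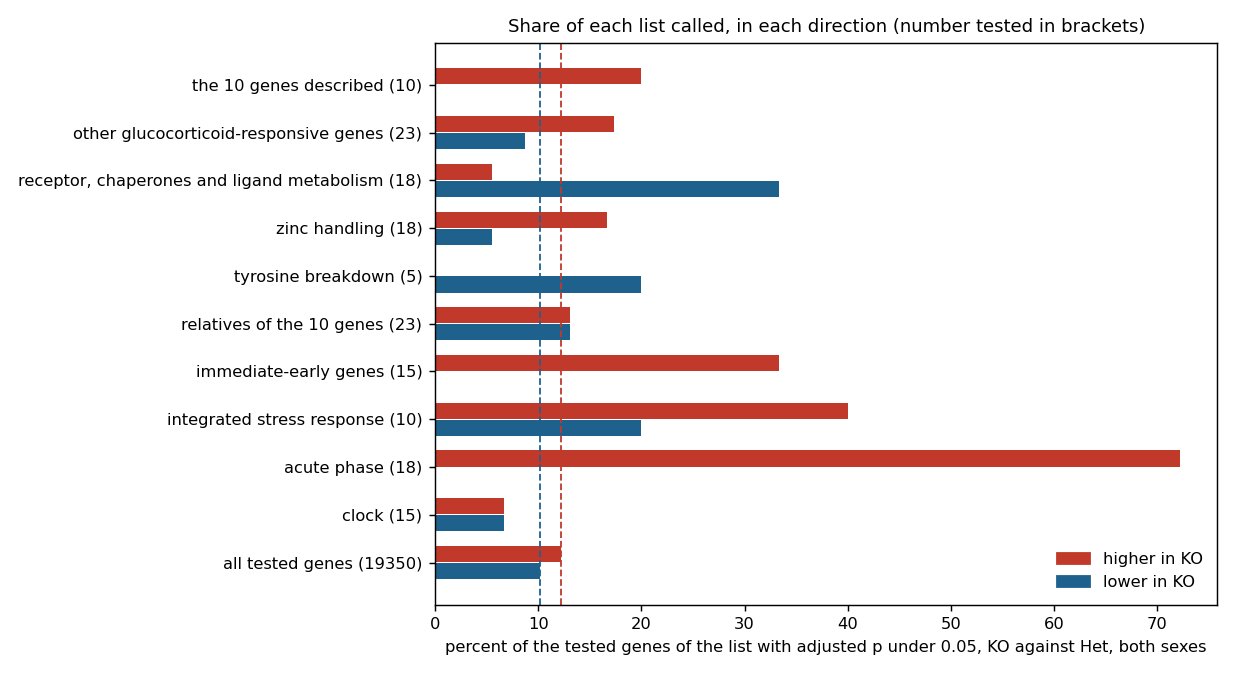
Percent of the tested genes of each list called higher (red) or lower (blue) in KO livers over both sexes by edgeR's quasi-likelihood test, with the number of tested genes in brackets. Dashed lines are the shares over all 19350 genes, 12.2% higher and 10.2% lower; the acute phase list stands at 72.2% higher and the receptor list at 33.3% lower.

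Some markers of other liver cell types were called as well, against 12.2% of all genes called higher and 10.2% lower. Their part in the values above was not tested. Of 7 Kupffer cell and macrophage markers 3 were called higher (Marco, Vsig4 and Cd68) and 0 lower, and their sum was 89.4 to 231 CPM in Het and 120 to 363 CPM in KO livers. Within females 0 of the 7 were called higher and within males 2, against 5.94% and 4.47% of all genes. Of 7 stellate cell markers Reln and Lrat were lower, with a sum of 247 to 451 CPM in Het and 124.7 to 269 CPM in KO livers, and of 7 markers of sinusoidal endothelium Kdr, Clec4g and Oit3 were lower, with a sum of 176 to 329 CPM and 133 to 239 CPM. The neutrophil and monocyte list had 1 of 5 tested genes higher (S100a8), at a sum of 1.40 to 4.41 CPM in Het and 3.00 to 5.42 CPM in KO livers, and Ly6g, Mpo and Elane had at most 5 counts in any liver. Lymphocyte markers summed to 4.60 CPM or less in every liver and cholangiocyte markers to 60.8 CPM or less, with 0 of 7 and 0 of 5 called, while Tat alone was at 581 CPM or more. Of 9 hepatocyte markers 1 was called higher and 2 lower (11.1% and 22.2%), and of 5 erythroid markers 0 were called higher and 1 lower.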

How the data were processed

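Estimated counts and TPM per gene for 12 livers were used as deposited. The authors aligned reads with STAR 2.7.9a to GRCm39 and estimated counts per gene with Salmon 1.10.1, and TPM (abundance per transcript length) came from the same step. Estimated counts were rounded, since 12.0% of the deposited count values are not whole. Genes with at least 5 reads, scaled to the median library, in at least 3 livers were tested with edgeR 4.0.16 in R 4.3.3 (TMM scaling, robust quasi-likelihood fit on 4 group means, prior count 2), the tool and kind of filter named in the study's methods; the genes that pass and the calls need not be the study's. Contrasts were KO against Het over both sexes and in each sex, their difference, and males against females. The labels give 3 mice per group. Alternatives were other scalings, filters and deposited count tables, DESeq2 1.42.0, limma 3.58.1 on log2 TPM, and leaving out each liver. Named genes are the members, the at most 5 listed genes of smallest p that were called (otherwise the 2 of smallest p), and the 3 nearest genes of called members, of which 1 is not reported here. The members and lists were chosen with earlier results of these data known. Positions come from GENCODE M39, a later release than the authors' M34. The fit was tested on simulated data. TPM keeps no depth.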

Additional observations from a re-analysis of the deposited data

Results flagged for a closer look

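The levels of Mt1 and Mt2 in Het_F_115 stood far from those of the other 5 Het livers on the CPM scale. Mt1 was at 616 CPM there, and its gap to the nearest Het liver (212 CPM) was 0.658 of the range of the 6 Het livers. Mt2 was at 259 CPM, and its gap to the nearest (40.0 CPM) was 0.847 of the range. Both lie past the 95% critical value of Dixon's test for 6 livers. On the log2 CPM scale, added after seeing the data, the same gaps were 0.196 of the range for Mt1 and 0.299 for Mt2, and neither lies past that value. These are 2 of 20 such tests (10 genes in 6 Het and 6 KO livers), of which chance marks about 1 in 20. The 6 Het livers are of both sexes. For Mt1, Mt2 and Fkbp5 the same liver was the only Het liver above the lowest KO liver. No member was called for a difference of its KO effect between the sexes.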

How the results depend on the processing

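Fkbp5 and Ddit4 were called over both sexes under all 14 alternatives, with log2 fold changes of 1.15 to 1.24 and 2.92 to 3.43. The number of members called changed by more than 1.5 times in few settings. Over both sexes it rose from 2 to 4 with limma on log2(TPM + 1) or log2(TPM + 0.1), which added Mt1 and Mt2, and Mt2 was also called by DESeq2 (adjusted p = 0.00876), with at least 10 reads in every liver (0.0406) and without robust estimation (0.0353). In females it rose from 1 to 3 with DESeq2 (adding Fkbp5 and Tat). In males it was 0 without a filter on low counts (Fkbp5 at adjusted p = 0.0517, with more genes tested) and 2 with DESeq2 or limma on log2(TPM + 1), both adding Mt2. Between the sexes it rose from 0 to 3 with DESeq2 and to 1 with limma at either pseudocount. For the interaction it was 0 throughout. With each liver left out in turn it ranged from 2 to 5 over both sexes, 0 to 2 in females, 0 to 3 in males and 0 to 1 between the sexes (Fkbp5, without Het_F_126, adjusted p = 0.0115).

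Direction changed only in values that were not called, and the cause was not tested. The male log2 value of Tat became 0.0162 with upper quartile scaling, 0.0594 with library size only, and 0.35 and 0.35 with limma (-0.38 to 1.04 with a liver left out). The interaction became 0.041 for Tsc22d3 with library size only and 0.17 and 0.27 for Sgk1 with limma, and the sex difference of Klf9 -0.0757 and -0.0781 with limma. With a liver left out the values ranged from -0.65 to 0.12 (Dusp1 in females), -0.0827 to 0.20 (Klf9 between sexes), -0.40 to 0.60 (Tsc22d3 in males), -0.0263 to 0.44 (Klf9 in males), -0.0518 to 0.44 (Tsc22d3 over both sexes), and, for the interaction, -0.70 to 0.32 (Tsc22d3), -0.72 to 0.29 (Sgk1), -1.59 to 0.35 (Zbtb16) and -0.53 to 0.0293 (Klf9). No paired analysis was possible because the labels do not say which mice share a litter. Mt2 had 0.448 CPM in its lowest liver, so folds against Het males rest on few reads.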
